A study of Mus musculus with 12 samples.

Results

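Small RNAs of the caput epididymis were compared between wild-type (WT) and Gpx5 knockout (KO) C57BL/6 mice at 2 months of age. The comparison used the 2 libraries labelled as 2-month caput small RNA, 1 for each genotype, of the 12 samples in the series. The rest of the series comes from 13-month animals (4 tissues, and a caput transcriptome) and was not analysed here apart from the 13-month caput small RNA pair, which was used for comparison. Gpx5 encodes glutathione peroxidase 5, a secreted antioxidant enzyme of the epididymal epithelium. Apart from Gpx5 the labels name no allele, transgene or treatment in either group, and the number of 2-month mice behind each library is not stated. The tissue protocol in the labels describes 13-month animals, with 7 mice a genotype pooled and caput pierced and kept in buffer so that sperm could swim out. Nothing states that the 2-month tissue was handled differently.

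MicroRNAs (miRNAs) are cut from hairpin precursors and are loaded into Argonaute proteins, where bases 2 to 8, the seed, pair with target mRNAs. Cutting is not exact, so that 1 miRNA is present as several forms that differ by a base or more at either end, and a change at the first base moves the seed. The epididymis is lined by a secretory epithelium surrounded by smooth muscle, vessels and immune cells, and sperm acquire part of their small RNA there. Other small RNAs in this size range are fragments of tRNA, snoRNA, rRNA and mRNA, and piRNAs, which are abundant in male germ cells. In bulk tissue, fewer cells of a type and less RNA per cell cannot be told apart.

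The WT library held 3855476 classified reads and the KO library 7673814, so that 3 reads, the limit that a count of 0 allows, correspond to 0.778 and 0.391 RPM, the number of reads in 1000000 classified reads. With 1 library a genotype the differences have no replicate check and no p-value is given. Ratios are KO over WT of RPM with exact conditional binomial 95% intervals, which cover counting error only, since reads without molecular identifiers are not independent molecules. A feature is called different where the ratio is at least 2-fold and the interval excludes 1. No read was listed under Gpx5 in either library, so these files do not check the genotype labels.

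The sequences below are the mature miRNAs on which the comparison turns, from RefSeq (GRCm38.p6), with the seed in capitals. They are the 2 miRNAs that hold most reads, those called higher in KO that were matched in RefSeq, and 4 that differed little between the libraries.
miR-10b-5p: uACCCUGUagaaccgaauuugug
miR-10a-5p: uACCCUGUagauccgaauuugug
miR-30a-5p: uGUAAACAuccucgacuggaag
miR-99b-5p: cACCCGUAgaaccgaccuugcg
miR-99a-5p: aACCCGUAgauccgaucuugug
miR-141-3p: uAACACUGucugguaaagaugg
miR-148a-3p: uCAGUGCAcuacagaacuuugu
miR-182-5p: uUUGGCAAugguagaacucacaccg
miR-181a-5p: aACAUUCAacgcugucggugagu
let-7f-5p: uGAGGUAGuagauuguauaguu
miR-10a-5p and miR-10b-5p share the seed ACCCUGU, and miR-99a-5p and miR-99b-5p share ACCCGUA. RefSeq mature entries were matched for 32 of the 36 miRNAs measured at 100 RPM or more. The 4 unmatched were miR-143-3p, miR-30d-5p, miR-375-3p and miR-126a-5p.

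miR-10a and miR-10b, which lie in the Hox gene clusters, together took 93.7% of WT reads and 91.7% of KO reads when all entries were counted. All other miRNAs made up 4.25% of reads in WT and 6.41% in KO, a log2 ratio of 0.59 (interval 0.58 to 0.60). Reads of no miRNA made up 2.09% in WT and 1.89% in KO. Because a pair of miRNAs holds nearly all reads, a small fall in their share goes with a large relative rise of the rest as a whole. That fall and that rise cannot be told apart on a scale of shares. The rest did not move as one, since reads of no miRNA had a log2 ratio of -0.15 (-0.16 to -0.13), against 0.59 for all other miRNAs. How these parts stand to each other does not depend on the share of the pair. The source of their unequal ratios was not tested.

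Within that pair the balance differed. miR-10b-5p measured 548106 RPM in WT and 479949 RPM in KO, a log2 ratio of -0.19. miR-10a-5p measured 261304 RPM in WT and 321172 RPM in KO, a log2 ratio of 0.30. The reads of miR-10b-5p to those of miR-10a-5p stood at 2.10 in WT and 1.49 in KO. The same ratio was 2.09 and 1.49 among reads without a mismatch, and in the 13-month caput it was 1.75 in WT and 1.92 in KO, so that the genotypes stood in the other order there. That opposite order was not tested.

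**Figure D1:**
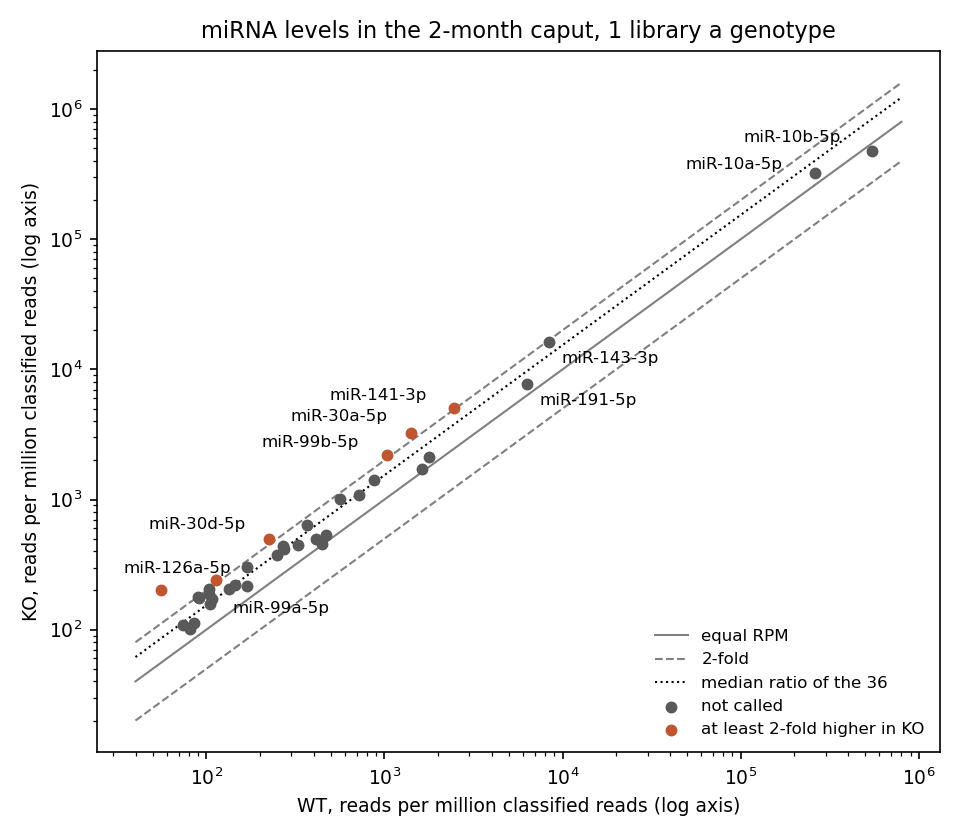
Levels of the 36 miRNAs at 100 RPM or more in the 2-month caput, with WT on the x axis and KO on the y axis, both in RPM on log axes. Lines mark equal levels, 2-fold differences and the median ratio of the 36 (log2 0.62); 35 points lie above the line of equal levels, and miR-10b-5p lies below it.

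Of the 36 miRNAs with 100 RPM or more in a library, 6 were called higher in KO (16.7%) and 0 lower (0%). The median log2 ratio of the 36 was 0.62 (quartiles 0.35 and 0.93), and 35 were above 0. The scaling decides the direction here: with edgeR's trimmed mean of M values (TMM), which removes a centre of 0.62, or DESeq2's median of ratios, which removes 0.63, 1 miRNA was called higher and 0 lower. TMM left 18 of the 36 above 0 and 18 below. Single miRNAs are therefore given below both as ratios and against the median of 0.62.

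The 6 called miRNAs covered endothelial, epithelial and more widely expressed genes. miR-126a-5p, from an intron of the endothelial gene Egfl7, measured 55.5 RPM in WT and 202 RPM in KO, a log2 ratio of 1.86 (1.65 to 2.07), 1.24 above the median. Its partner from the other arm of the same hairpin, miR-126a-3p, measured 25.9 RPM and 34.4 RPM, a log2 ratio of 0.41 (0.07 to 0.75). Counted under any entry miR-126a-5p measured 84.3 RPM and 231 RPM, a log2 ratio of 1.45. The median of miRNAs counted under any entry was 0.59. By name, the 2 arms of this hairpin thus had unequal ratios, and miR-126a-5p was the miRNA still called with TMM and with the median of ratios. Both scalings used counts by name, which for miR-126a-5p held no mismatched reads. Under any entry its reads of 21 nt numbered 302 in WT and 1608 in KO, and 214 and 1525 without mismatched reads. That remaining call therefore depends on how reads were given to entries.

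miR-30a-5p, a broadly expressed miRNA of epithelia, measured 1407 RPM in WT and 3236 RPM in KO, a log2 ratio of 1.20 (1.16 to 1.24). miR-30d-5p, which has the same seed, measured 226 RPM and 498 RPM, a log2 ratio of 1.14 (1.03 to 1.25). Both lay over 2-fold above WT on the classified-read scale, and 0.58 and 0.52 above the median. The other 3 names with the seed GUAAACA were below 100 RPM, and with them the seed summed to 1713 RPM in WT and 3904 RPM in KO.

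The relatives of miR-10 that carry the seed ACCCGUA had higher ratios than miR-10 itself. miR-99b-5p measured 1033 RPM in WT and 2198 RPM in KO, a log2 ratio of 1.09 (1.04 to 1.14). miR-99a-5p measured 114 RPM and 243 RPM, a log2 ratio of 1.09 (0.94 to 1.25). The remaining member, miR-100-5p, measured 168 RPM and 303 RPM, a log2 ratio of 0.85, and was not called. The seed as a whole gave a log2 ratio of 1.06, against -0.01 for the seed ACCCUGU of miR-10a-5p and miR-10b-5p.

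miR-141-3p, a member of the miR-200 family that marks epithelial cells, measured 2464 RPM in WT and 5055 RPM in KO, a log2 ratio of 1.04 (1.00 to 1.07). It was the most abundant of the 6 called. Next below the 2-fold limit came miR-127-3p at 0.99, miR-375-3p at 0.98, miR-429-3p at 0.94 and miR-143-3p at 0.93. miR-143-3p, the miRNA of smooth muscle, came next in abundance after the miR-10 pair, with 8438 RPM and 16110 RPM in WT and KO.

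At the other end, abundant miRNAs differed little on the scale of classified reads and lay below the median. miR-181a-5p measured 447 RPM in WT and 457 RPM in KO, a log2 ratio of 0.03 (-0.05 to 0.12). miR-182-5p, of the miR-183 cluster, measured 1631 RPM and 1723 RPM, a log2 ratio of 0.08. let-7f-5p measured 470 RPM and 536 RPM, a log2 ratio of 0.19. miR-148a-3p measured 1768 RPM and 2105 RPM, a log2 ratio of 0.25. miR-191-5p, next after miR-143-3p in abundance, measured 6310 RPM and 7742 RPM, a log2 ratio of 0.30 (0.27 to 0.32). With TMM, these 5 would stand below WT, none of them by as much as 2-fold.

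**Figure D2:**
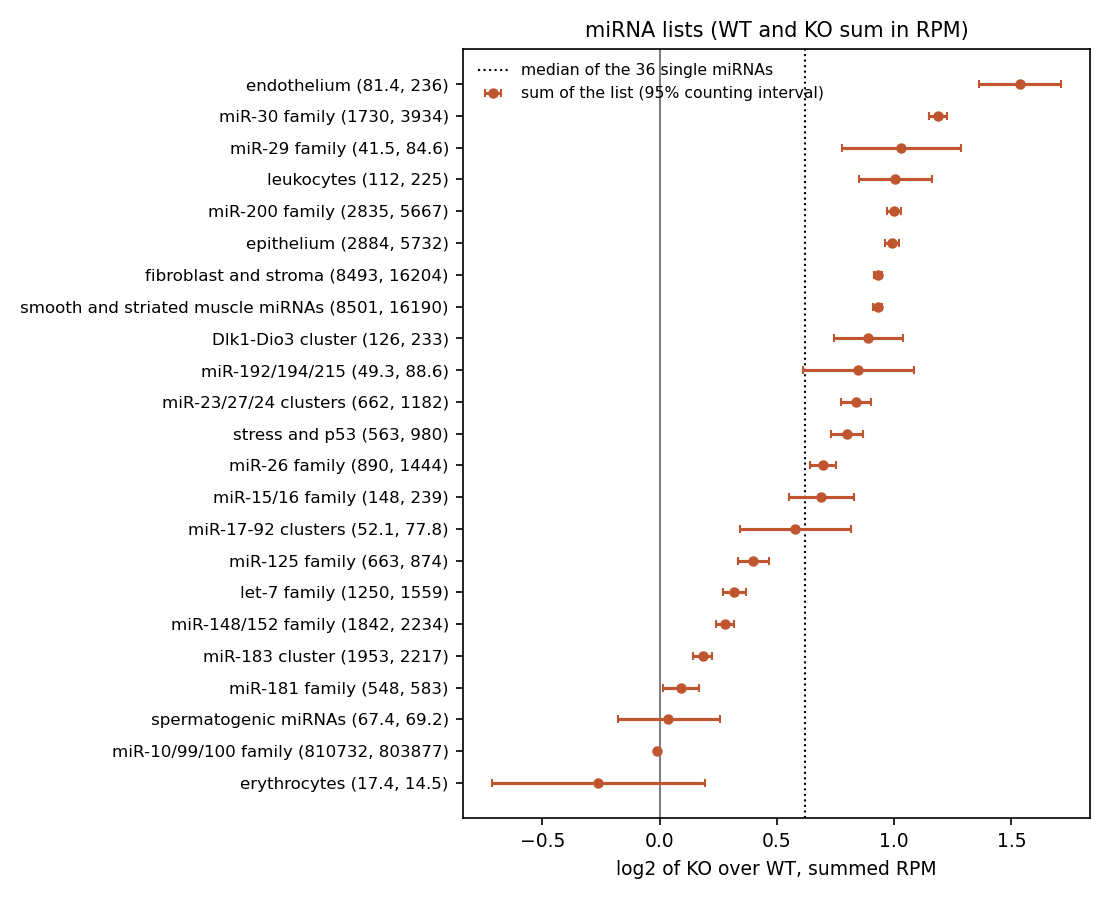
Log2 of KO over WT for the summed RPM of each miRNA list with at least 10 RPM in both libraries; bars are 95% counting intervals, the dotted line is the median of the 36 single miRNAs (0.62), and the WT and KO sums in RPM are in brackets. The lists run from erythrocytes at -0.26 to endothelium at 1.53.

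Families and cell type lists were summed and set against the median. The miR-200 family, expressed in epithelium, went from 2835 RPM in WT to 5667 RPM in KO, a log2 ratio of 1.00, and 1 of its 4 members at 100 RPM or more was called higher. Of all 36 miRNAs, 16.7% were called higher. In the miR-30 family 2 of 2 such members were called, and the sum had a log2 ratio of 1.18. In the let-7 family 0 of 4 were called, and the sum went from 1250 RPM to 1559 RPM, a log2 ratio of 0.32. The miR-181 family had 0 of 2 called and a log2 ratio of 0.09, the miR-183 cluster 0 of 2 and 0.18, the miR-148 and miR-152 family 0 of 1 and 0.28, and the miR-125 family 0 of 2 and 0.40. Counted by name and against the median of 0.62, the miR-30 and miR-200 sums were 0.56 and 0.38 higher. The let-7, miR-181, miR-183 and miR-148 and miR-152 sums were 0.30 to 0.53 lower.

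Lists for the other cell types of the organ had unequal ratios. The list for endothelium summed to 81.4 RPM in WT and 236 RPM in KO, a log2 ratio of 1.53, of which miR-126a-5p made up most. The leukocyte list summed to 112 RPM and 225 RPM, a log2 ratio of 1.00, and most of it was miR-146a-5p, a miRNA of immune signalling, with 103 RPM and 188 RPM, a log2 ratio of 0.86 by name and 0.49 under any entry. The muscle list, nearly all miR-143-3p, gave 0.93. From the same cluster, miR-145a-5p measured 36.1 RPM and 39.6 RPM, a log2 ratio of 0.14 (-0.16 to 0.44). The other arm of its hairpin, miR-145a-3p, measured 21.0 RPM and 35.2 RPM, a log2 ratio of 0.74 (0.38 to 1.12).

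miRNAs that mark germ cells, red blood cells and liver were low in both libraries. The spermatogenic list, of which 17 of 21 named miRNAs had reads, summed to 67.4 RPM in WT and 69.2 RPM in KO, a log2 ratio of 0.04 (-0.18 to 0.26). Its most abundant member, miR-34c-5p, measured 34.0 RPM and 36.5 RPM. The erythrocyte list, mostly miR-486-5p, summed to 17.4 RPM and 14.5 RPM. The liver miRNA miR-122 had 0 reads in WT and 1 in KO. The part that the make-up of the tissue has in the miRNA ratios was not tested.

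The ratio between the genotypes depended on the length of the read. For each of the 36 miRNAs, all reads that started at the usual first base and held bases 5 to 20 of the usual form were counted by length, under any entry. Among forms with 20 RPM or more in a library, the median log2 ratio was 0.97 over 9 forms of 20 nt, 0.63 over 31 forms of 21 nt, 0.55 over 35 of 22 nt, 0.29 over 27 of 23 nt, 0.06 over 14 of 24 nt and -0.12 over 4 of 25 nt. The mean read length was lower in KO for 30 of the 36 miRNAs, by a median of 0.06 nt, with differences from -0.60 nt to 0.03 nt. With mismatched reads left out of both the forms and the total, the medians were 0.95 at 20 nt, 0.71 at 21 nt, 0.53 at 22 nt, 0.26 at 23 nt and 0.19 at 24 nt, and the mean length was lower in KO for 31 of 36. This tabulation was chosen after the values had been seen, and its points share 2 libraries.

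**Figure D3:**
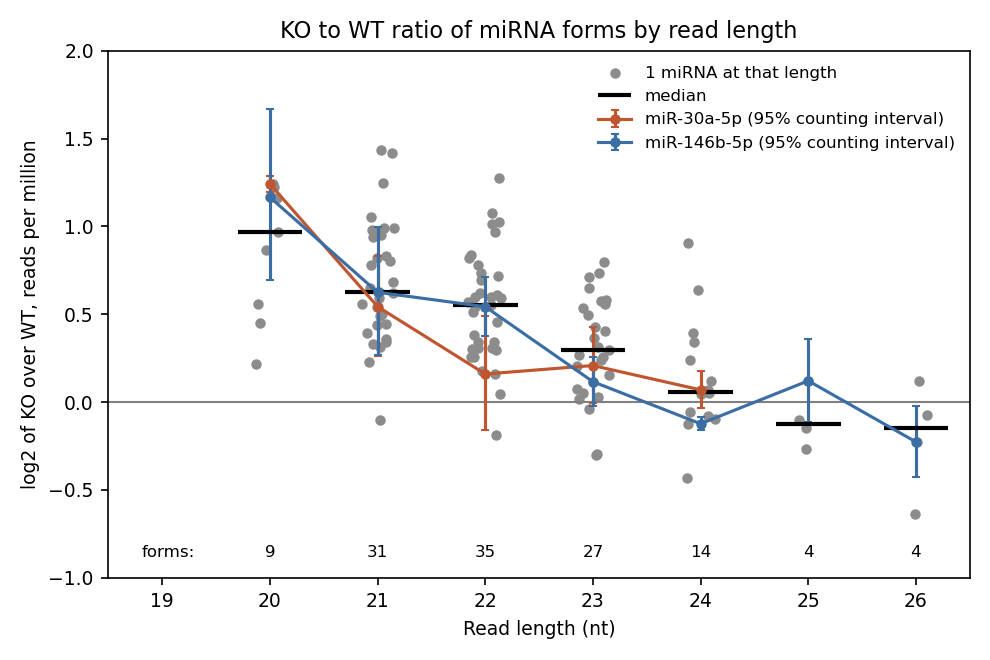
Log2 of KO over WT for each miRNA form with at least 20 RPM in a library, by read length in nt; grey points are single miRNAs, black bars are medians with the number of forms printed beneath, and lines with 95% counting intervals follow miR-30a-5p and miR-146b-5p. Mismatched reads are included, and the medians go from 0.97 at 20 nt to 0.06 at 24 nt.

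The miR-30 family showed this within single miRNAs. Reads of miR-30a-5p of 20 nt went from 1319 RPM in WT to 3120 RPM in KO, a log2 ratio of 1.24. Reads of miR-30a-5p of 24 nt measured 285 RPM in WT and 299 RPM in KO, a log2 ratio of 0.07. Those of 24 nt thus made up 16.3% of the miR-30a-5p reads in WT and 8.31% in KO.

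The same split held for miR-30d-5p, where reads of 20 nt had a log2 ratio of 1.23 and reads of 24 nt one of 0.12. In the deposited lists the shorter reads stand under the mature name and the longer ones under the hairpin, so a count by name takes in only the forms that differed most. Counted under any entry, miR-30a-5p had a log2 ratio of 1.04 and miR-30d-5p one of 0.79, below the 2-fold limit. Of 50 miRNAs with 100 RPM or more counted in that way, 5 were called higher (miR-126a-5p, miR-141-3p, miR-30a-5p, miR-99a-5p and miR-99b-5p), and 0 lower.

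miR-146b-5p, a miRNA known from inflammatory signalling, gives a plain case. Under its mature name it measured 133 RPM in WT and 206 RPM in KO, a log2 ratio of 0.62. Under any entry it measured 2676 RPM and 2574 RPM, a log2 ratio of -0.06, and 83.4% of its reads in WT and 79.6% in KO were of 24 nt. The mismatch-free form of 24 nt measured 1906 RPM in WT and 1935 RPM in KO. The sequences below, copied from the deposited lists, are the mismatch-free form of each of these lengths, whereas the values above by length include mismatched reads. Capitals mark the seed in the forms of 20 and 22 nt and the last 2 bases in those of 24 nt.
miR-30a-5p, 20 nt: tGTAAACAtcctcgactgga
miR-30a-5p, 24 nt: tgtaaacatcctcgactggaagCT
miR-30d-5p, 20 nt: tGTAAACAtccccgactgga
miR-30d-5p, 24 nt: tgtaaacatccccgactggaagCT
miR-146b-5p, 22 nt: tGAGAACTgaattccataggct
miR-146b-5p, 24 nt: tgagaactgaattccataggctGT
On the scale of all classified reads, the printed miR-30a-5p sequence of 20 nt measured 937 RPM in WT and 2937 RPM in KO, a log2 ratio of 1.65, and that of 24 nt 202 RPM and 280 RPM, a log2 ratio of 0.47 (0.35 to 0.59). The miR-30d-5p sequences had log2 ratios of 1.62 at 20 nt and 0.58 at 24 nt. Over the mismatch-free total these log2 ratios were lower. They were 1.48 at 20 nt and 0.30 at 24 nt for miR-30a-5p, and 1.45 and 0.40 for miR-30d-5p. The higher ratio of the shorter form is thus seen in each way of counting. The long form differed more without mismatched reads than with them, though part of that on the scale of all classified reads comes from the total used. miR-141-3p and miR-126a-5p, both called higher, had almost no reads of 23 nt or longer, with 0.398% and 0.308% of their reads in WT. miR-99b-5p had 22.3% such reads in WT and 18.3% in KO.

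The start of the read differed little between the genotypes. For miR-10b-5p, 10.5% of reads in WT and 10.8% in KO began 1 base later than usual, and for miR-10a-5p 19.4% and 19.7%. Such a read carries another seed, shown in capitals below beside that of the usual form.
miR-10b-5p, usual start: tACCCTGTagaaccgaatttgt
miR-10b-5p, 1 base later: aCCCTGTAgaaccgaatttgt
miR-10a-5p, usual start: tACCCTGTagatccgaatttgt
miR-10a-5p, 1 base later: aCCCTGTAgatccgaatttgt
Over all reads that began 1 base later, under any entry and with mismatches, miR-10b-5p measured 64533 RPM in WT and 57608 RPM in KO, a log2 ratio of -0.16. The corresponding reads of miR-10a-5p measured 60027 RPM and 74234 RPM, a log2 ratio of 0.31. Both ratios were close to those of the whole miRNA. The single mismatch-free sequence of 21 nt printed above for the later start was scaled to all classified reads. It measured 17506 RPM and 19527 RPM for miR-10b-5p, and 21217 RPM and 32730 RPM for miR-10a-5p. Of all classified reads, 80.8% in WT and 91.1% in KO were without mismatch, so each of these ratios is higher than over the mismatch-free total. In both miRNAs a form of 24 nt took a smaller share of reads in KO, 5.34% in WT against 4.55% in KO for miR-10b-5p and 7.75% against 6.61% for miR-10a-5p.

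The libraries also differed in how many reads carried a mismatch to the matched entry. Among reads under mature miRNA names, 15.4% in WT and 5.09% in KO had at least 1. The share was higher in WT for 35 of the 36 miRNAs at 100 RPM or more. It was 0 in both libraries for the exception, miR-126a-5p, whose mismatched reads stood under other entries. Of its reads of 21 nt under any entry, 302 in WT and 1608 in KO, 214 and 1525 were without mismatch. The mismatches stood mainly at positions 2, 3 and 4 of the read, and at position 3 there was one in 7.03% of WT and 1.77% of KO reads. Summed over these 3 positions the percentages were 13.6% in WT and 3.47% in KO at 2 months, against 0.124% and 0.323% in the 13-month caput.

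**Figure D4:**
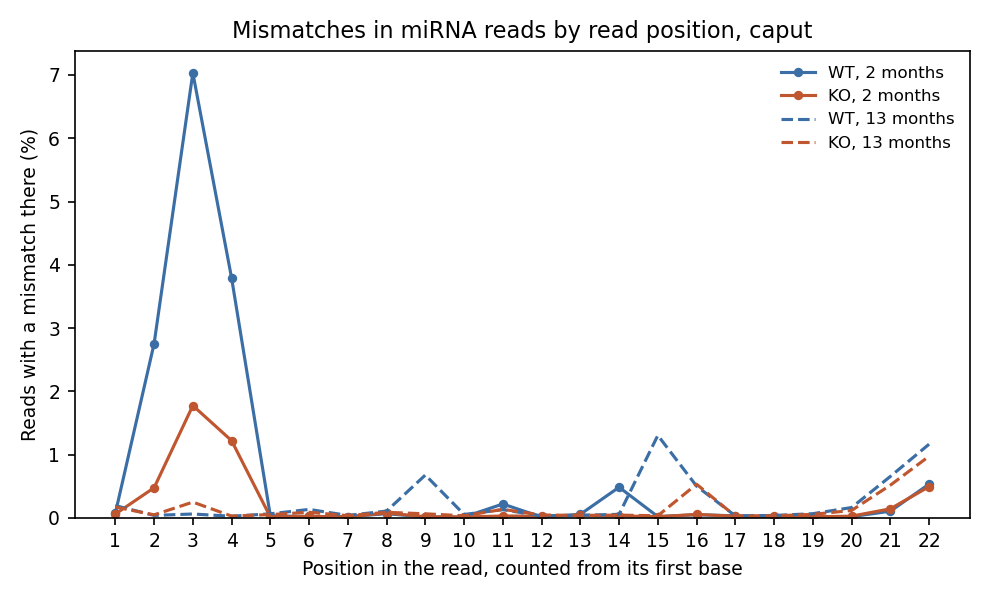
Percent of reads under mature miRNA names with a mismatch at each position of the read, counted from its first base, for the 2-month (solid) and 13-month (dashed) caput libraries. The 2-month WT library peaks at 7.03% at position 3 and the 2-month KO library at 1.77%.

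The position followed the read rather than the miRNA base. In reads that began 1 base later, WT mismatches were again most frequent at position 3 of the read, at 8.74%, compared with 6.79% in reads with the usual start. Reads of the snoRNA SNORD58, which is no miRNA, had a mismatch in 17.7% in WT and 4.91% in KO. Further positions in WT were 11, with 0.219% against 0.0292% in KO, and 14, with 0.484% against 0.0300%. The mismatched forms of miR-10b-5p are shown with the changed base in capitals and named by the entry's base, the position from the read's first base and the base read.
C3T: taTcctgtagaaccgaatttgt
C4T: tacTctgtagaaccgaatttgt
A2T: tTccctgtagaaccgaatttgt
C14A: taccctgtagaacAgaatttgt
C14G: taccctgtagaacGgaatttgt
A11C: taccctgtagCaccgaatttgt
The form C3T measured 33166 RPM in WT and 7310 RPM in KO. C4T measured 18686 RPM and 5325 RPM, and A2T measured 12862 RPM and 1764 RPM. At the later positions the libraries were farther apart: C14G went from 960 to 6.52 RPM and A11C from 371 to 1.95 RPM. The first 3 of these forms have their changed base in the seed.

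Over single mismatch-free sequences of any class with 20 RPM or more, 47 of 200 were at least 2-fold higher in KO (23.5%) and 3 lower (1.5%). These RPM are over all classified reads, of which 80.8% in WT and 91.1% in KO were without mismatch. Each ratio is therefore higher than it would be over the mismatch-free total. The usual form of miR-10b-5p, for example, had a log2 ratio of -0.03 on the first scale and -0.21 on the second.

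Mismatches bore on the counts by name. Without mismatched reads miR-30a-5p, of whose reads 30.1% in WT and 6.42% in KO were mismatched, had a log2 ratio of 1.45 in place of 1.20. miR-10b-5p went from -0.19 to -0.20. With mismatched reads left out, 8 of 35 miRNAs were called higher and 0 lower, and the median was 0.67. The part of the mismatches in the difference between genotypes was not tested.

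**Figure D5:**
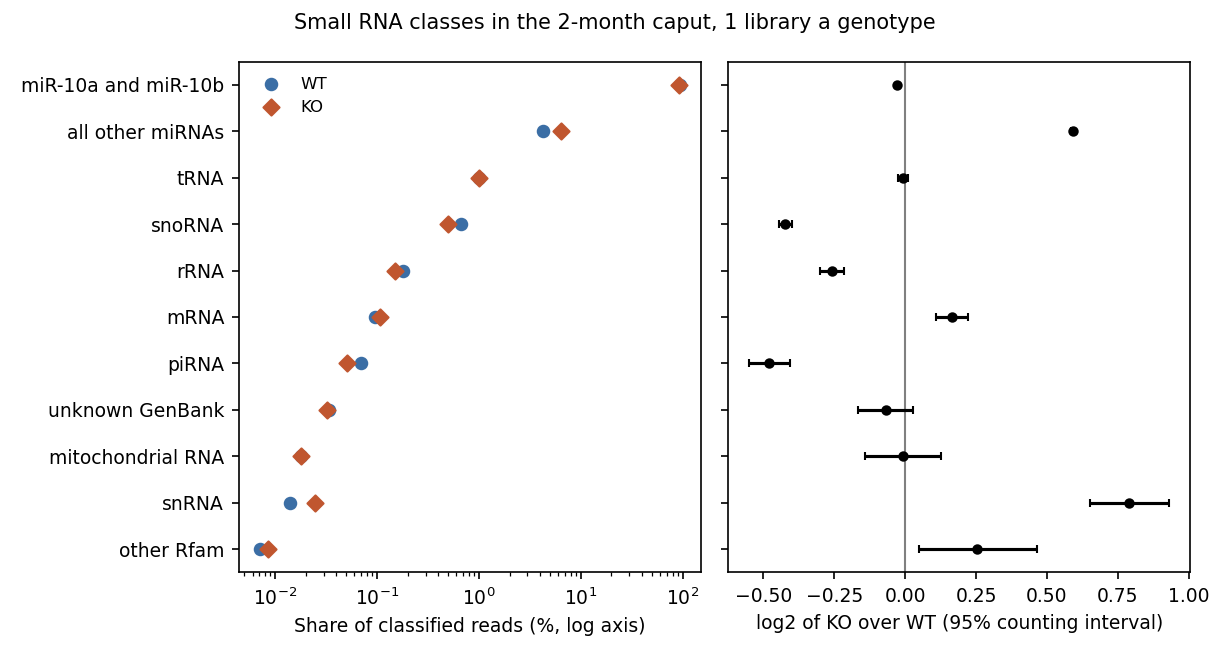
Share of classified reads in WT and KO for miR-10a with miR-10b, all other miRNAs and 9 other classes (left, percent on a log axis), and log2 of KO over WT with 95% counting intervals (right). snRNA is at 0.79, all other miRNAs at 0.59 and piRNA at -0.48.

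Of the 9 classes other than miRNA, none differed by 2-fold. snoRNA fragments, from the guides of rRNA modification, made up 0.671% of WT and 0.501% of KO reads, a log2 ratio of -0.42 (-0.45 to -0.40). The log2 ratio of piRNA was -0.48 and that of rRNA -0.26. tRNA fragments made up 1.00% in both. Without the reads of miR-10a and miR-10b in the denominator, each of these log2 ratios is lower by 0.39, and tRNA is then at -0.39 and snoRNA at -0.81.

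One fragment made up most of the snoRNA class. SNORD58 measured 5582 RPM in WT and 4191 RPM in KO, a log2 ratio of -0.41, and 99.3% of its WT reads were of 39 or 40 nt. The other snoRNAs summed to 1129 RPM and 814 RPM, a log2 ratio of -0.47, so that the ratio was below 1 with and without it. Of 44 snoRNA entries at 5 RPM or more, 9 were at least 2-fold lower and 1 higher, with a median of -0.41. Over all 143 such entries of the 9 classes the counts were 29 lower (20.3%) and 34 higher (23.8%).

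Among snoRNAs called lower, SNORD75 measured 70.5 RPM in WT and 31.5 RPM in KO, a log2 ratio of -1.16. SNORD99 measured 53.2 RPM and 18.4 RPM, a log2 ratio of -1.53. SNORD101, SNORD100 and SNORD82, all under 10 RPM, had log2 ratios of -1.25, -1.24 and -1.87. The 1 snoRNA called higher, Snord68, went from 1.82 RPM to 14.1 RPM but rested on which entry a sequence was given.

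Entries were not assigned alike in the 2 libraries. Of 7564 sequences listed in both, which held 99.7% of reads in each, 813 (10.7%) stood under another entry in KO than in WT. When each shared sequence was given its WT entry, 128 entries were at 5 RPM or more, 15 were called higher (11.7%) and 18 lower (14.1%), and among snoRNAs the counts were 0 higher and 7 lower of 43. Rtl1 is an example. It went from 2.07 RPM to 29.5 RPM by its listed entry, but 224 of its 226 KO reads held bases 5 to 20 of miR-127-3p, which lies antisense to Rtl1. With the WT entry Rtl1 measured 4.04 RPM in KO. The snRNA class, whose log2 ratio of 0.79 was the highest of the 9, rested on the same point: its largest entry in KO went from 68.7 RPM to 188 RPM as listed, and had 15.6 RPM in KO with the WT entry.

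The mRNA class held other reads of this kind. Lrrc4c, its largest entry by reads in WT, had 277 reads in each library, and 263 of these in WT and 275 in KO held bases 2 to 14 of miR-10b-5p. In the class as a whole 56.1% of reads in WT and 45.8% in KO were mismatched. Its share was 0.0952% in WT and 0.107% in KO.

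tRNA fragments came mostly from 2 tRNAs whose ratios lay on opposite sides of 1. Fragments of tRNA-Gly measured 4833 RPM in WT and 3931 RPM in KO, a log2 ratio of -0.30 (-0.32 to -0.27). Those of tRNA-Val measured 4506 RPM and 5364 RPM, a log2 ratio of 0.25 (0.23 to 0.28). tRNA-Glu, known from sperm, was at 153 RPM and 118 RPM, a log2 ratio of -0.37, and tRNA-Lys at 56.0 RPM and 75.5 RPM, a log2 ratio of 0.43. The near-equal totals of the class thus summed ratios in both directions, each below 2-fold. These counts include mismatched reads. tRNA-Val had 15992 reads of 33 nt in WT and 38086 in KO. Of the 6 mismatch-free tRNA sequences at 20 RPM or more, the single sequence of 33 nt had 75 and 258 reads. Nearly all tRNA-Val reads of that length therefore stood in mismatched or rarer sequences.

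Within tRNA-Gly the lengths differed. Fragments of 30 nt measured 2057 RPM in WT and 1341 RPM in KO, a log2 ratio of -0.62, and those of 18 nt 500.1 RPM and 263 RPM, a log2 ratio of -0.93. Fragments of 31 nt measured 1204 RPM and 1295 RPM, and those of 32 nt 977 RPM and 944 RPM. For tRNA-Val, 92.1% of reads in WT and 92.5% in KO were of 33 nt, with a log2 ratio of 0.26. The change with length was thus not the one seen in miRNAs, where the shorter forms were those with the higher ratio.

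The piRNA class differed in make-up as well as in share. Reads of 24 to 32 nt, the size of piRNAs, were 91.0% of the class in WT and 81.9% in KO. Reads that began with T, the usual first base of piRNAs, were 74.9% and 62.4%. A single entry, piR-22206, was the largest in both libraries, with 227 and 161 RPM. It held 876 of the 2709 reads of the class in WT and 1238 of 3870 in KO. Its mismatch-free sequences of 30 and 31 nt, each at 20 RPM or more, began with T and so count towards both percentages. Whether the reads of this entry, or of the class, are piRNAs was not tested. Of 9 piRNA entries at 5 RPM or more, 1 was called higher and 1 lower, with a median of -0.05, against 23.8% and 20.3% of all entries of the 9 classes. With the WT entry for shared sequences, 0 of 8 were higher and 1 was lower.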

How the data were processed

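Small RNA libraries from caput were compared, 1 a genotype at 2 months. The deposited files list, per distinct sequence, the authors' count of reads and, per the file headers, the matched miRBase, Rfam or GenBank entry with up to 2 mismatches. Per the submitters' processing notes, TopHat2, Bowtie 0.12.7 and mm9 were used, with no role given; mismatch and entry rules beyond this are not given in the sources used here. Lines whose rank and count had become a date (5531 in WT, 5419 in KO) were read with the month as the count, and ranks without a line hold an estimated 1.07% to 1.08% of WT and 0.815% to 0.822% of KO reads. Reads were given to classes by entry and to miRNAs by plus-strand mature name, and RPM is per 1000000 classified reads. Intervals are exact conditional binomial 95% intervals (SciPy 1.17.1). edgeR 4.0.16 (TMM) and DESeq2 1.42.0 gave scaling alternatives. Minimum levels were 100 RPM for miRNAs and 5 RPM for other entries. miRNAs were named as the 10 most abundant and the 10 with the highest and lowest ratios, plus up to 4 members per list and up to 3 entries per class by reads or by ratio; any other name was chosen after its values were seen. tRNA amino acids were named by hand from the reads. The members and lists were chosen with earlier results of these data known, and alternatives on inner bases, on a denominator without miR-10, on mismatch-free reads by length and on the WT entry were added after the data were seen. Other tissues and the transcriptome are not used here.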

Additional observations from a re-analysis of the deposited data

Results flagged for a closer look

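Of the 36 miRNAs, 35 were higher in KO at 2 months, and 13 of these were lower in KO than in WT in the 13-month caput when counted by name. Counted under any entry, 34 were higher at 2 months and 12 of those lower at 13 months. For 11 miRNAs the ratios at the 2 ages lay on opposite sides of 1 in both ways of counting, with the intervals by name at both ages and that under any entry at 13 months clear of 1. These signs are on the scale of classified reads only. By name, let-7a-5p, let-7c-5p, miR-186-5p, miR-125b-5p and miR-200c-3p lay at 0.36 to 0.60, below the 2-month median of 0.62. Against that median they would already stand below WT at 2 months. miR-16-5p, miR-27b-3p, miR-100-5p, miR-146a-5p and miR-30d-5p lay above it. At 13 months miR-10a-5p was at 0.65 and miR-10b-5p at 0.78. Each age has 1 library a genotype, and neither the difference between the ages nor the part of the scaling in it was tested.

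The miR-30, miR-10 and miR-99 relatives among the 11 were these. miR-30d-5p, the 1 called at 2 months, had a log2 ratio of 1.14 (226 RPM in WT, 498 RPM in KO), and -0.21 at 13 months (3409 RPM in WT, 2939 RPM in KO, interval -0.23 to -0.20). Under any entry its log2 ratios were 0.79 and -0.22. miR-10b-5p was at -0.19 and then 0.78, the reverse order. miR-100-5p was at 0.85 and -0.14.

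Of the other 8, miR-27b-3p was at 0.84 at 2 months and -4.45 at 13 months by name, the farthest apart of the 11. Under any entry it was at 0.82 and -3.10. The values that follow are by name unless stated. The let-7 members let-7a-5p and let-7c-5p were at 0.36 and 0.45 and then -0.53 and -0.28. miR-146a-5p was at 0.86 and -0.74, and miR-16-5p at 0.67 and -0.37. miR-200c-3p was at 0.60 and -0.33, miR-125b-5p at 0.59 and -0.23, and miR-186-5p at 0.54 and -0.29. miR-99b-5p, called at 2 months, was at 0.09 by name at 13 months but at -0.36 under any entry.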

How the results depend on the processing

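No paired analysis was possible because the labels give 1 library a genotype and no replicate number to pair. No direction of a called miRNA reversed under any alternative tried. Against 6 of 36 miRNAs called higher, the count was 1 of 36 with TMM, the median of ratios, a base without miR-10b-5p and a denominator without miR-10a and miR-10b, and 1 of 5 for reads starting 1 to 3 nt away. It was 9 of 35 without date lines, 8 of 35 without mismatches, 13 of 73 at 20 RPM or more, 3 of 12 at 1000 RPM, 43 of 428 with at least 1 read (3 lower) and 23 of 36 at 1.5-fold. The median log2 ratio of 0.62 became 0.71 without date lines, -0.00186 with TMM, -0.00890 with the median of ratios, 0.42 without miR-10b-5p, 0.23 without both miR-10 miRNAs and 0.30 for starts away from the usual base. For other entries, higher calls went from 34 to 19 without mismatches, 22 without the 10 most abundant sequences, 5 at 20 RPM and 15 with the WT entry; lower calls from 29 to 11 at 20 RPM, 75 at 1 RPM and 18 with the WT entry.

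Class log2 ratios moved as follows. Without date lines piRNA was -0.34, rRNA -0.21 and snoRNA -0.39. Without mismatches mRNA was 0.30, rRNA -0.31, snoRNA -0.38 and tRNA -0.21. Without the 10 most abundant sequences miRNA was -0.43, piRNA -0.69, rRNA -0.37, snoRNA -0.67 and tRNA -0.80. As distinct sequences at equal depth mRNA was 0.32, miRNA -0.0271, rRNA 0.00449, snoRNA -0.33 and tRNA 0.0934. Without miR-10a and miR-10b in the denominator mRNA was -0.22, miRNA -0.38, piRNA -0.87, rRNA -0.65, snoRNA -0.81 and tRNA -0.39. With the WT entry rRNA was -0.0740. Causes were not tested, apart from the changes of base and minimum that are the alternatives themselves.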

Other observations

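miR-142-5p, a miRNA of blood cells that was below 100 RPM in both libraries, measured 4.15 RPM in WT and 28.0 RPM in KO, a log2 ratio of 2.76 (2.02 to 3.59), and 5.45 RPM and 34.3 RPM under any entry, a log2 ratio of 2.65. It was chosen after its values were seen.

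Single mismatch-free sequences at 20 RPM or more were scaled to all classified reads, which raises each ratio as said above. Of the 200, 170 were miRNA forms, 10 were snoRNA fragments and 1 was mitochondrial, so most calls of any kind would fall on miRNA forms. The 3 called lower were snoRNA fragments, of SNORD75, SNORD99 and 1 further entry, and 46 of the 47 higher were miRNA forms. The exception was a mitochondrial fragment of 20 nt, with 23.3 RPM in WT and 62.4 RPM in KO.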
